A study of Homo sapiens with 4 samples.

Results

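The V, D and J segments of the T cell receptor genes were examined in 4 RNA-sequencing libraries of J-gammal, a human cell line. The members are the genes whose GENCODE 29 symbol starts with TRAV, TRAJ, TRBV, TRBD, TRBJ, TRGV, TRGJ, TRDV, TRDD or TRDJ and whose gene type is a T cell receptor type. Of 226 such segments in the annotation, 69 have a row among the 28274 genes of the deposited table, and the other 157 were not analysed here. The rule uses names and gene types only, so no measured value chose the members. The 2 control libraries are described as untreated with the genotype "none", and their titles carry the letters NC, which are not spelled out. The 2 knockdown libraries carry the genotype FYB1 knockdown and titles with "sh-FYB1". No further allele or agent is named for any library. The sources used here do not say whether the knockdown libraries share a construct, whether the controls carried one, or whether the cells are 1 clone. The RNA is of whole cultures, so fewer cells of a kind and less RNA per cell cannot be told apart.

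A T cell builds each receptor chain by joining germline segments in its DNA, a V and a J segment for the alpha and gamma chains and a V, a D and a J segment for the beta and delta chains. RNA splicing then links the joined segment to the exons of a constant region. In a rearranged gene the J segments that lie between the joined J and the constant exons stay in the intron, so they can be read in unspliced RNA. The descendants of a single T cell carry the same joins, and a clonal line is therefore known to use few V segments. As background, the leukaemic T cell line Jurkat carries a receptor built with TRAV8-4 and TRBV12-3. The labels do not say from which line J-gammal derives.

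The libraries held 16693113 to 20251864 reads, recovered from the deposited FPKM. These values are reads divided by exon length and by a scale per library, and the scales (0.924, 0.931, 1.02 and 1.14 relative to their geometric mean) equal median-of-ratios size factors to 4 digits and do not follow the sums of reads. FYB1, the gene targeted, stood at 17.6 FPKM in control 1 and 20.1 FPKM in control 2, against 6.18 and 4.53 FPKM in the knockdown pair. All 11 alpha beta T cell markers averaged at least 1 FPKM, and their summed level was 2789 to 3105 FPKM in the controls and 1662 to 2116 FPKM in the knockdown libraries. TRBC1, a result given further on, made up much of that difference. TRBC2, CD3D, CD3E, CD247, CD7, CD2 and CD5 were also lower in both knockdown libraries than in both controls, as were 34.6% of all genes tested. TRAC and CD3G were higher in both knockdown libraries, and LCK overlapped between the groups. Of the gamma delta list, TRDC has no row, TRGC1 was at most 0.0397 FPKM, TRGC2 was at 2.53 to 4.14 FPKM and ZBTB16 at 9.6 to 13.3 FPKM. The summed FPKM of 5 myeloid markers was at most 0.382 in any library, and MS4A1 and PAX5 of B cells were at or below 0.0386 FPKM. CD79A, a B cell receptor subunit, was at 11.1 to 24.5 FPKM, and NKG7, a gene of cytotoxic cells, at 9.46 to 12.5 FPKM. The part of the T cell markers' lower sum in the segment results was not tested.

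The first beta J cluster, the 3 alpha J segments next to the constant gene and the D segment with a row are shown because they are so short that few reads give a high FPKM. Each is the germline sequence, 5′ to 3′, from the GENCODE 29 transcripts (hg38, plus strand). The capitals mark a 12-base motif, TTNGGNNNNGGN, which holds the codons of the conserved glycines of the J region. The motif was searched on both strands. On the coding strand it was found in 75 of the 83 annotated J segments (90.4%) and on the other strand in 0. No other motif was searched. A match is a description of these letters only.
TRBD1 (chr7:142786213-142786224): gggacagggggc
TRBJ1-2 (chr7:142787017-142787064): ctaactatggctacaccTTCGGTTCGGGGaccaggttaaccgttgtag
TRBJ1-3 (chr7:142787630-142787679): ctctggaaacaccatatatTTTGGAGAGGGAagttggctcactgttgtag
TRBJ1-4 (chr7:142788225-142788275): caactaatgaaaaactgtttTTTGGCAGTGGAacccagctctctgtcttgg
TRBJ1-5 (chr7:142788498-142788547): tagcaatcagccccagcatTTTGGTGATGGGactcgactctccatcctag
TRBJ1-6 (chr7:142788988-142789040): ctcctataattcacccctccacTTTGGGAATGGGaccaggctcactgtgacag
TRAJ3 (chr14:22543179-22543240): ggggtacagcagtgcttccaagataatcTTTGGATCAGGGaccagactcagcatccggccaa
TRAJ2 (chr14:22544071-22544136): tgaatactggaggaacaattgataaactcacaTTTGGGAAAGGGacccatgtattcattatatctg
TRAJ1 (chr14:22545037-22545098): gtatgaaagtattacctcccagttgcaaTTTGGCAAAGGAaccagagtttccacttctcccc

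TRBV12-3 and TRBV12-4 are shown as a pair because reads of these near-identical segments can be hard to assign. The lines give the first 150 of 347 coding bases of each, and the capitals mark the bases that differ. All 9 differences fall in this stretch, and the last 198 coding bases are identical in both segments.
TRBV12-3 (chr7:142560423-142560931): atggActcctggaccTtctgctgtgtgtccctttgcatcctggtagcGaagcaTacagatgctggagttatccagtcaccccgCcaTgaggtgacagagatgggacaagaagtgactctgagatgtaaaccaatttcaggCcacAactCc
TRBV12-4 (chr7:142563740-142564245): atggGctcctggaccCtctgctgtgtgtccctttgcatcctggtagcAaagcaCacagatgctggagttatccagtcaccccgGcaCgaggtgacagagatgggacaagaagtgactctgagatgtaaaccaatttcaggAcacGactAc

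A single V segment of the alpha chain and one of the beta chain carried most of the signal. TRBV12-3 and TRAV8-4 together took 79.6% and 77.7% of all segment reads in the controls, against 67.9% and 70.6% in the knockdown libraries. TRBV12-3 took 92.7% of TRBV reads in control 1 (exact 95% binomial interval 92.1% to 93.4%) and 86.0% in knockdown library 1 (84.6% to 87.3%). Its share was 93.46% in control 2 (92.77% to 94.1%) and 88.35% in knockdown library 2 (87.29% to 89.35%). TRAV8-4 took 86.7% of TRAV reads in control 1 (85.4% to 87.8%) and 81.5% in knockdown library 1 (80.3% to 82.7%). Its share was 84.12% in control 2 (82.77% to 85.4%) and 79.8% in knockdown library 2 (78.64% to 80.91%). These intervals cover counting error only. All segments together made up 0.0487% to 0.0632% of the reads of a library.

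Exon length changed the picture that FPKM gives. The J segments with a row are 46 to 66 bases long and TRBD1 is 12 bases long, while the V segments have 136 to 1735 bases of exon. At 50 bases, 1 FPKM stands for 0.832 to 1.02 reads. TRBJ1-5 averaged 286 FPKM over the 4 libraries, near the 366 FPKM of TRAV8-4, but from a mean of 256 reads against 3126. TRBD1 averaged 26.2 FPKM from 4 and 10 control reads and 6 and 2 knockdown reads. TRAV18, at a similar 35.4 FPKM, rested on a mean of 287 reads. Of the 69 segments, 29 had a mean of at least 20 reads and 40 had fewer.

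**Figure D1:**
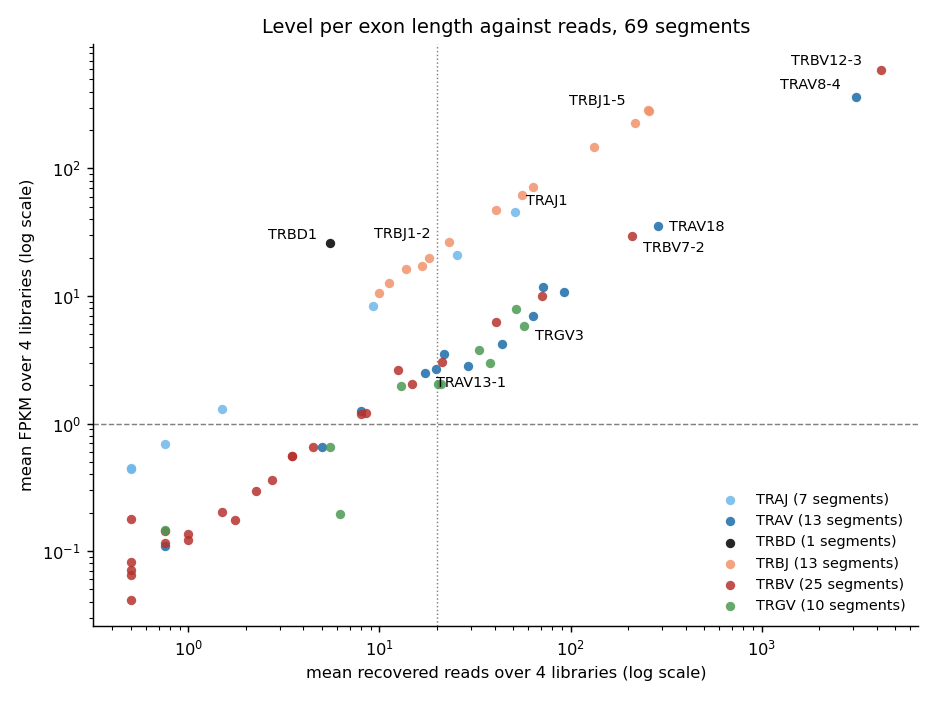
Each point is 1 of the 69 segments, with its mean recovered reads (x, log scale) and its mean FPKM (y, log scale) over the 4 libraries, coloured by class. The dashed line is the minimum of 1 FPKM for the test and the dotted line is 20 reads. TRBJ, TRAJ and TRBD1 lie above V segments with the same reads, and TRBV12-3 (586 FPKM) and TRAV8-4 (366 FPKM) stand apart at the upper right.

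Among the alpha V segments, TRAV8-4 was at 354 and 326 FPKM in the controls and at 377 and 407 FPKM in the knockdown libraries. TRAV18 followed at 24.7, 32.4, 39.1 and 45.5 FPKM in the same order, an order of magnitude lower. TRAV16 (7.79 to 18.3 FPKM), TRAV19 (7.65 to 14.1 FPKM) and TRAV17 (3.47 to 10.3 FPKM) came next, and these 3 overlapped each other. The closest annotated relative of TRAV8-4 was TRAV8-2, identical at 93.2% of aligned bases with a longest shared run of 150 bases, and it stood at 2.95 to 5.18 FPKM. Reads of the TRAV8 family are therefore uncertain at low levels.

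The alpha V segments with a row formed 1 stretch of the locus. From TRAV8-2 to TRAV19, 13 of 16 annotated TRAV segments had a row, at 700.3 to 539.3 kb before TRAC, the alpha constant gene. The 13 annotated segments before TRAV8-2 and the 25 after TRAV19 have no row and were not analysed here.

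The alpha J signal lay next to the constant gene. TRAJ1, 2.41 kb before TRAC, had 32 and 35 control reads, and 80 and 59 knockdown reads. TRAJ2, 3.37 kb before it, had 12, 24, 38 and 28 reads, and TRAJ3, 4.27 kb before it, had 12, 4, 14 and 7. The other TRAJ segments with a row, TRAJ31, TRAJ35, TRAJ37 and TRAJ38, lay 36.5 to 45.2 kb away and had at most 3 reads in any library. None of the 26 segments annotated between TRAJ3 and TRAJ31 has a row.

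Among the beta V segments, TRBV12-3 was at 894 FPKM in control 1, 747 in control 2, 301 in knockdown library 1 and 404 in knockdown library 2. TRBV7-2 was next at 37.8, 23.7, 25.7 and 31.2 FPKM. TRBV12-4 was at 16.7, 12.2, 4.41 and 6.37 FPKM, a ratio of 0.0147 to 0.0187 to TRBV12-3 in the same library. TRBV28 was at 4.56 to 8.91 FPKM, overlapping TRBV12-4. The other 21 TRBV rows each averaged under 20 reads except TRBV13, which averaged 21.2 reads, and 6 of them lie in the TRBV copy on chromosome 9 with 3 to 14 reads in all per library.

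In the first beta J cluster, the level in the controls was lowest at the segment farthest from TRBC1, the first beta constant gene, and highest at TRBJ1-4 and TRBJ1-5. TRBJ1-2, 4.63 kb before TRBC1, was at 27.5 and 24.8 FPKM in the controls and is named here after its values were seen. TRBJ1-3, at 4.01 kb, was at 166 and 143 FPKM, and TRBJ1-4, at 3.42 kb, at 337 and 343 FPKM. TRBJ1-5, at 3.15 kb, was at 311 and 340 FPKM, overlapping TRBJ1-4, and TRBJ1-6, at 2.65 kb, at 265 and 244 FPKM. In knockdown library 1 TRBJ1-6 (206 FPKM) was above TRBJ1-4 (203 FPKM). TRBJ1-1 is the single annotated TRBJ segment without a row. Per length, TRBJ1-2 stood at 0.0308 and 0.0332 of the TRBV12-3 level in the controls, and at 0.0827 and 0.0731 in the knockdown libraries.

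The second J cluster, before TRBC2, was lower and uneven. TRBJ2-3 was at 71.1 and 68.1 FPKM and TRBJ2-1 at 55.3 and 65.5 FPKM in the controls, and the other 6 members were at 6.47 to 43.5 FPKM there. The first cluster held 82.7% and 83.5% of control TRBJ reads, and 75.9% and 75.3% of knockdown TRBJ reads.

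**Figure D2:**
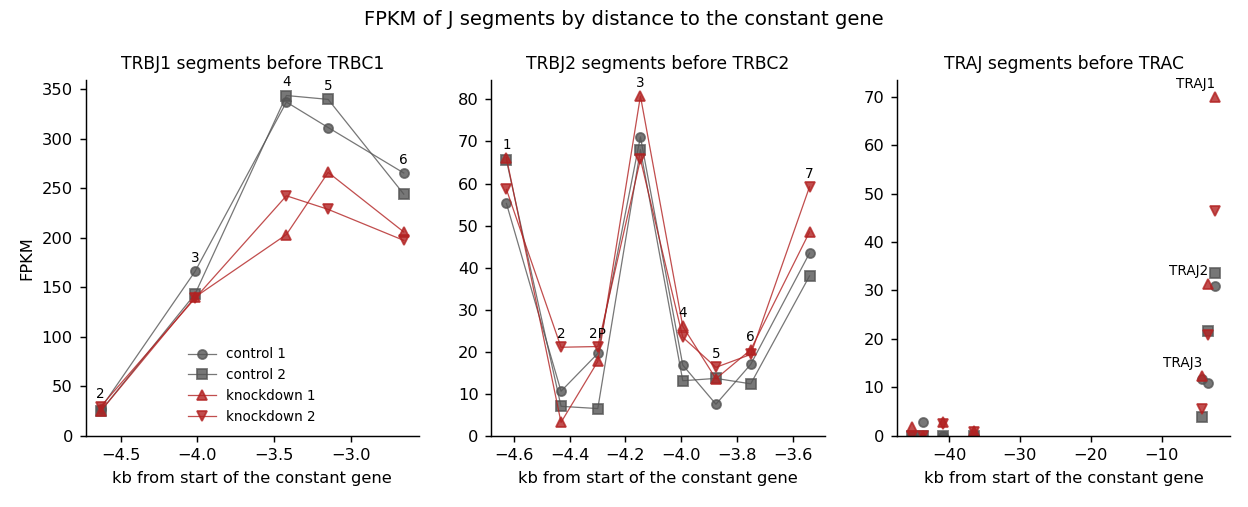
FPKM of each J segment (y) against its distance in kb from the start of the constant gene (x, negative before the gene) in the 4 libraries, controls in grey and knockdown in red. Numbers name the segment within its cluster. The controls lie above the knockdown libraries at TRBJ1-4, TRBJ1-5 and TRBJ1-6, and all TRAJ values above 3 FPKM lie within 4.27 kb of TRAC.

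Gamma segments carried little, and no delta segment has a row. The 10 TRGV rows summed to 161 and 169 control reads, and to 319 and 337 knockdown reads. TRGV7, a pseudogene, had the highest mean at 7.94 FPKM, followed by TRGV3 at 5.83 FPKM, and the 2 overlapped. TRGC2, a gamma constant gene, had 66, 43, 59 and 86 reads, and TRGC1 had 0, 0, 2 and 2. TRGJ, TRDV, TRDD and TRDJ segments have no row in the table and were not analysed here.

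The comparison of knockdown with control asks which segments changed when FYB1 was lowered. TRBV12-3 and 2 other beta segments, TRBV12-4 and TRBJ1-4, fell in the test on recovered reads. TRAV13-1, an alpha V segment of low level, was called higher in both tests, but it passed the filter on low values only through the knockdown libraries. Its direction was thus fixed in advance. Limma-trend did not call it with no filter, and limma-voom was run only with a filter. The main test was limma-trend on log2(FPKM + 1) over 13172 genes that averaged 1 FPKM or more, with Benjamini-Hochberg adjustment over all of them and a threshold of 0.05. It tested 45 of the 69 segments, 16 of them with a mean under 20 reads, and left out 24. Of the 45, TRAV13-1, TRAJ35, TRAV8-5 and TRBV10-3 reached the minimum only through the knockdown libraries, so these had to be higher there. TRBV10-3 is named after its values were seen. Limma-trend called 1 of the 45, TRAV13-1, against 0.205% of all genes tested. Limma-voom on the recovered reads called 4 of the 45 (8.89%), against 7.74% of all genes, so the share called is near the background. By direction it called 3 lower, against 5.8% of all genes, and 1 higher, TRAV13-1, against 1.94%.

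TRBV12-3, the main beta V segment, fell from 820.4 ± 104 to 352 ± 72.7 FPKM (SD, n = 2 each), to 0.429 of the control mean. By limma-voom the log2 fold change was -1.23 ± 0.16 (SE, adjusted p = 0.00342). By limma-trend it was -1.23 ± 0.23 (adjusted p = 0.107), which did not pass. Limma-trend called it among genes averaging 5 FPKM or more (adjusted p = 0.0453) and under quantile normalization (-0.74, adjusted p = 0.0285). With crossed pairs, chosen after seeing the data, it was called as well (limma-trend adjusted p = 0.0107). Limma-trend did not call it with no filter (adjusted p = 0.318) or among genes averaging at least 20 reads (0.0775). Nor did it with recovered reads as library total (0.0649) or a replicate block (0.0806). Both knockdown libraries lay below both controls. With 1 library left out, the log2 fold change ran from -1.44 to -1.02 by limma-trend and by limma-voom. In such fits the lone library of a group is assumed to vary like the other group.

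TRBV12-4 fell as well, from 14.5 ± 3.21 to 5.39 ± 1.39 FPKM (limma-voom log2 fold change -1.41 ± 0.31, adjusted p = 0.0278; limma-trend adjusted p = 0.0961). Limma-trend called it when restricted to genes averaging at least 20 reads (adjusted p = 0.0484) or at least 5 FPKM (adjusted p = 0.0325). Reads of the shared 198 coding bases cannot be told apart between the 2 segments. The TRBV12-4 call by limma-voom ended without control 1 (adjusted p = 0.139), without knockdown library 1 (adjusted p = 0.131) and when the recovered reads set the library total (adjusted p = 0.0538).

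TRBC1, the constant gene downstream of the first J cluster, fell by a similar factor. TRBC1 was at 1404 and 1237 FPKM in the controls, against 469 and 647 FPKM with knockdown (limma-voom log2 fold change -1.26 ± 0.17, adjusted p = 0.00428). The ratio of TRBV12-3 to TRBC1 was 0.637 and 0.604 in the controls, against 0.642 and 0.624 with knockdown, so the groups overlapped. TRBC1 and TRBC2 share 91.8% of aligned bases, and their reads may be split between them. TRBC2 went from 256 and 214 to 132 and 166 FPKM (limma-voom log2 fold change -0.66 ± 0.15, adjusted p = 0.0277).

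The main alpha V segment and its constant gene were not called. TRAV8-4 averaged 340.2 ± 19.8 FPKM in the controls and 392 ± 21.4 FPKM in the knockdown libraries (log2 fold change 0.20 ± 0.17, limma-trend adjusted p = 0.467, limma-voom adjusted p = 0.288), with both knockdown libraries above both controls. TRAC was at 400 and 373 FPKM in the controls, against 406 and 459 FPKM with knockdown (limma-voom adjusted p = 0.459). The ratio of TRBV12-3 to TRAV8-4 was 2.52 and 2.29 in the controls, against 0.798 and 0.992 with knockdown, without overlap. An exact two-sided permutation test of this ratio gave p = 0.333, the smallest that 2 libraries against 2 allow.

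**Figure D3:**
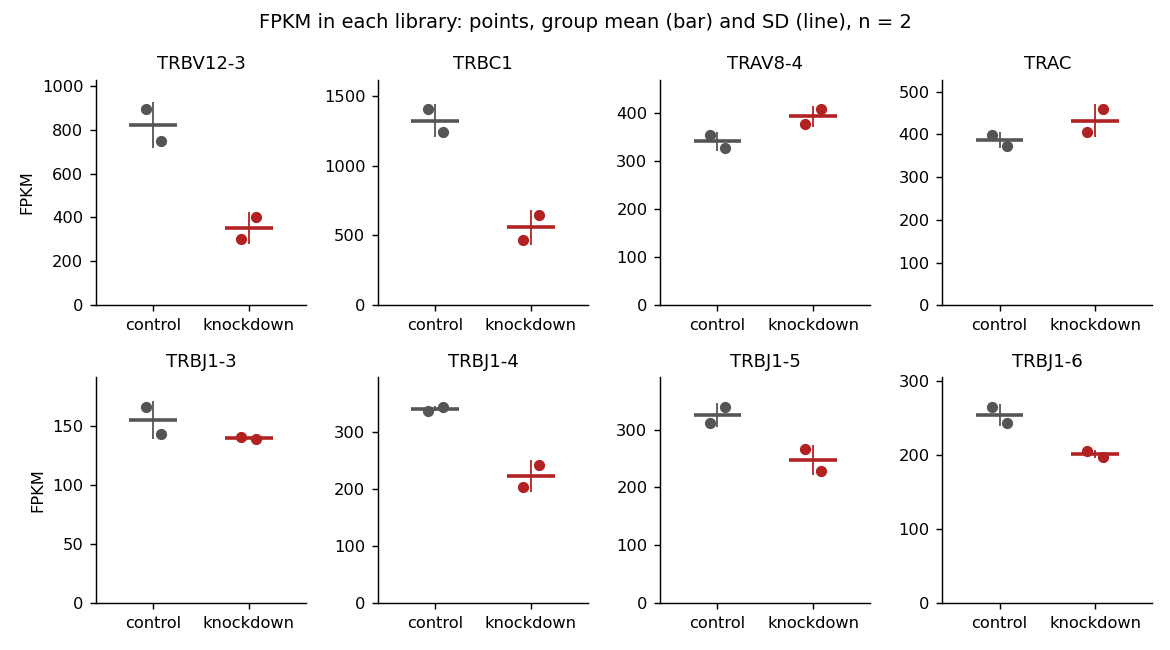
FPKM (y) in each library, by group (x), of TRBV12-3, TRAV8-4, 4 TRBJ1 segments, TRBC1 and TRAC. Points are libraries, the thick bar the group mean and the thin line the SD (n = 2 each). TRBV12-3 and TRBC1 sit lower in both knockdown libraries, TRAV8-4 and TRAC sit slightly higher, and the 4 TRBJ1 segments lie lower by less. Under quantile normalization TRBJ1-3 and TRBJ1-6 turn positive (0.21 and 0.03), and TRBJ1-4 and TRBJ1-5 shrink to -0.20 and -0.03.

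TRBJ1-4 fell, by less than TRBC1, and the other J segments of the first beta cluster were not called. TRBJ1-4 fell from 340.1 ± 4.62 to 223 ± 27.6 FPKM, to 0.655 of the control mean (limma-voom log2 fold change -0.61 ± 0.16, adjusted p = 0.0472; limma-trend adjusted p = 0.144). That call ended without control 1, control 2 or knockdown library 1 (limma-voom adjusted p = 0.299, 0.192 and 0.145) and when the recovered reads set the library total (0.0934). TRBJ1-5 was at 325 ± 20.1 and 247 ± 26.4 FPKM, and TRBJ1-6 at 254 ± 15.1 and 201 ± 6.05 FPKM, neither called. TRBJ1-3 was at 154 ± 16.1 and 139 ± 0.90 FPKM and TRBJ1-2 at 26.2 ± 1.92 and 27.2 ± 3.28 FPKM. Relative to TRBC1, the summed FPKM of the 5 TRBJ1 rows was 0.788 and 0.885 in the controls, against 1.79 and 1.29 with knockdown (exact two-sided permutation p = 0.333, the smallest possible). This ratio was not corrected for the trend on exon length. After removal of that trend all 5 rows were lower by limma-trend, with none called. TRBJ1-4 then stood at -0.90, TRBJ1-5 at -0.69 and TRBJ1-6 at -0.62. Under quantile normalization, TRBJ1-3 and TRBJ1-6 changed sign, to 0.21 and 0.03, and TRBJ1-4 and TRBJ1-5 shrank to -0.20 and -0.03.

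In the second beta J cluster limma-trend and limma-voom called 0 segments, and the unadjusted limma-trend p was under 0.05 for 3, as it was for 23.4% of all genes tested. All 8 rows had a higher mean FPKM in the knockdown libraries, and in 3 of them both knockdown libraries lay above both controls, which 26.0% of all genes tested did. TRBJ2-4, with 14, 11, 24 and 24 reads, had a log2 fold change of 0.70 ± 0.14 (limma-trend adjusted p = 0.118). TRBJ2-3 and TRBJ2-1, the members with most reads, had log2 fold changes of 0.07 and 0.05, and both turned negative after removal of the trend on exon length (-0.23 and -0.24). The summed FPKM of this cluster relative to TRBC2 was 0.942 and 1.05 in the controls, against 2.10 and 1.72 with knockdown (exact two-sided permutation p = 0.333).

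TRAV13-1 was called higher by both tests, from few reads, and its control mean lay under the minimum of 1 FPKM. It reached that minimum only through the knockdown libraries, so it had to be higher there. Its sign and its calls are therefore no support for a change. It had 5 and 4 control reads against 26 and 34 knockdown reads, or 0.748 ± 0.122 and 4.26 ± 0.491 FPKM. Its log2 fold change was 1.59 ± 0.14 by limma-trend (adjusted p = 0.0398) and 2.39 ± 0.55 by limma-voom (adjusted p = 0.031). The limma-trend call ended without knockdown library 1 or 2 (adjusted p = 0.21 and 0.0555) and with no filter on low values (0.264). The limma-voom call ended without control 1, control 2 or knockdown library 1 (adjusted p = 0.122, 0.0877 and 0.0842). TRAV13-1 lies at chr14:21868839-21869365, and its closest annotated relative, TRAV13-2, shares 81.7% of aligned bases.

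The other alpha V segments did not pass either test. All 11 tested TRAV segments had a positive log2 fold change (median 0.46), beside 6021 of the 13172 genes tested. TRAV13-1 and TRAV8-5 had to be higher, because they reached the minimum of 1 FPKM only through the knockdown libraries. The signs were the same with quantile normalization, with the recovered reads as library total, after removal of a trend on exon length and without each library. With no filter on low values 12 of 13 were positive, beside 15105 of 28274 genes. TRAV16 was at 7.85 and 7.79 FPKM in the controls, against 13.0 and 18.3 FPKM with knockdown (log2 fold change 0.90 ± 0.16, limma-trend adjusted p = 0.104). TRAV19 went from 8.13 ± 0.682 to 13.4 ± 1.03 FPKM (0.66 ± 0.11, limma-trend adjusted p = 0.1). TRAV17 had a log2 fold change of 0.89 and TRAV18 of 0.56 (limma-trend adjusted p = 0.134 and 0.154). When limma-trend was restricted to genes averaging 5 FPKM or more, TRAV16 and TRAV19 were called (adjusted p = 0.0427 and 0.04).

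The 4 tested alpha J segments had positive log2 fold changes that did not pass, and TRAJ3 went to -0.02 after removal of the trend on exon length. TRAJ37, not tested, had 3, 0, 0 and 0 reads. TRAJ1 had a log2 fold change of 0.80 ± 0.21 (limma-trend adjusted p = 0.136) and TRAJ2 of 0.69 ± 0.34 (adjusted p = 0.271). TRAJ3 was at 11.6 and 3.84 FPKM in the controls, against 12.2 and 5.51 FPKM with knockdown, so the groups overlapped. TRAJ35 had 0, 0, 3 and 3 reads, at the limit of 3 reads that a count of 0 allows, and no fold is given. TRAJ35 reached the minimum of 1 FPKM only through the knockdown libraries, so it had to be higher there. Its sign and the settings that called it are therefore no support for a change. Its limma-trend adjusted p was 0.0508, and it was called with a pseudocount of 5 (0.0401), under quantile normalization (0.0456), with the recovered reads as library total (0.0406) and after removal of the length trend (0.0461). It was not called with no filter (0.264) or by limma-voom (0.116).

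The gamma V segments were also at higher means. All 7 tested TRGV segments had a positive log2 fold change, with a median of 0.65, beside 6021 of the 13172 genes tested. The same held for these 7 under the scalings and omissions named for TRAV. With no filter it was 9 of 10. Limma-trend and limma-voom called 0 of them, and limma-trend gave 5 an unadjusted p under 0.05, against 23.4% of all genes tested. TRGV5 had 13, 6, 30 and 35 reads (log2 fold change 1.01 ± 0.21, limma-trend adjusted p = 0.118), and TRGV8 had 22, 18, 37 and 55 (0.75 ± 0.16, adjusted p = 0.118). TRGV4 had 23, 16, 72 and 40 reads, so knockdown library 1 carried most of its difference. TRGV1 to TRGV5P overlap TRG-AS1, an antisense gene that had 312, 314, 356 and 352 reads at 4.16 to 4.68 FPKM, and the sources used here do not say whether strand was used in counting. Summed reads relative to the library total were 1.72 times the control mean for the 6 TRGV rows that overlap TRG-AS1 and 1.70 times for the 4 that do not. TRGV5 and TRGV3 share 96.6% of aligned bases, and TRGV4 and TRGV2 share 96.3%, so reads of each are uncertain.

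**Figure D4:**
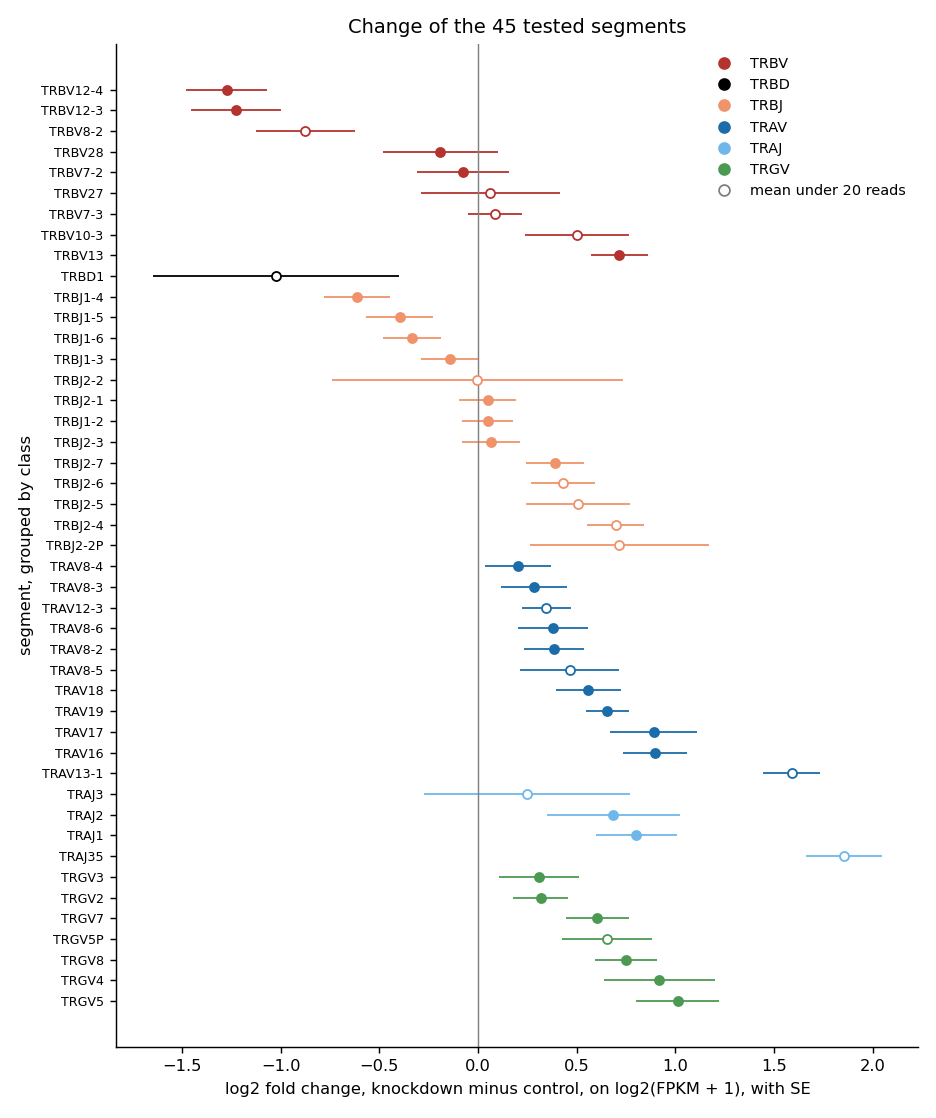
Log2 fold change, knockdown minus control, on log2(FPKM + 1), with its SE (x) for the 45 tested segments (y), grouped and coloured by class; open points have a mean under 20 reads. The TRBV12 pair sits near -1.2, the TRBJ1 segments between -0.61 and 0.05, and every TRAV, TRAJ and TRGV point is above 0, although TRAJ3 goes to -0.02 after removal of the length trend.

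Counted over the 45 tested segments, both knockdown libraries lay above both controls in 24 (53.3%), against 26.0% of all genes tested, and below both in 7 (15.6%), against 34.6%. An unadjusted p under 0.05 by limma-trend was reached by 22 (48.9%), against 23.4% of all genes. The median log2 fold change of the tested segments was 0.38, beside -0.03 over all genes. By exon length, it was 0.16 for the 18 segments under 100 bases, beside 0.12 for the 236 other genes of that length, and 0.39 for the 27 longer segments, beside 0.02 for 1521 other genes of 100 to 1000 bases. The 4 segments that reached the minimum only through the knockdown libraries are among the 24. With no filter, 50 of the 69 segments had a positive log2 fold change, beside 15105 of 28274 genes. Segments at 1 locus share its transcripts and are not independent of each other. When the recovered reads set the library total, the median of all genes moved to 0.08 and that of the segments to 0.48.

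Among the partner genes of the receptor CD3D fell, CD3E, CD247 and PTCRA were lower without being called, and CD3G was higher without being called. No recombination gene was called by limma-voom. Of 21 genes listed as constant regions, receptor partners, recombination enzymes and factors that join DNA ends, 20 have a row and 17 were tested. Limma-trend called 0, and 8 had an unadjusted p under 0.05, against 23.4% of all genes tested. Limma-voom called 3, TRBC1, TRBC2 and CD3D, all lower, against 5.8% of all genes called lower and 7.74% called in either direction. CD3D, a signalling subunit of the receptor complex, was at 478 and 419 FPKM in the controls, against 224 and 299 FPKM with knockdown (limma-voom adjusted p = 0.02). CD3G, another subunit, was at 21.5 and 20.6 FPKM in the controls, against 24.1 and 25.2 FPKM with knockdown (limma-voom adjusted p = 0.231). CD3E went from 167.2 and 158.5 FPKM to 110.4 and 140.7 FPKM (limma-voom adjusted p = 0.115). CD247 went from 36.8 and 35.2 to 24.7 and 30.5 FPKM (limma-voom adjusted p = 0.0869). PTCRA went from 3.03 and 2.09 to 1.07 and 1.34 FPKM (limma-voom adjusted p = 0.0889). PRKDC, a kinase of DNA end joining, was at 8.99 and 10.3 FPKM in the controls, against 15.3 and 11.9 FPKM with knockdown (limma-voom adjusted p = 0.0605). RAG1 and RAG2, the recombinase that cuts at V, D and J segments, were at 1.17 and 2.35 FPKM in the control means and at 0.707 and 1.41 FPKM in the knockdown means. RAG1 was not tested because its mean was under 1 FPKM, and RAG2 had a limma-voom adjusted p of 0.069. DNTT, which adds bases at the joins, was at 2.38 and 1.57 FPKM (limma-voom adjusted p = 0.177).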

How the data were processed

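The labels' protocols name Trizol for harvesting RNA and a TruSeq kit from Illumina for the libraries. The submitters' processing notes name HISAT2 2.0.5 and hg38. The sources used here do not name the counting program, annotation or read length, or say how strand and reads across a V-J join were treated.

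The deposited values were taken as FPKM, although the header names no unit. Each value times the merged GENCODE 29 exon length was a whole multiple, within 0.001, of a library's own step for 100% of 28274 genes. Dividing by the step gave whole reads, and the step gave the authors' scale per library, 16648943 to 20480491 reads. These scales equal median-of-ratios size factors to 4 digits and are not sums of reads.

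Tests were limma-trend on log2(FPKM + 1) and limma-voom on recovered reads with those scales as library sizes (limma 3.58.1, R 4.3.3). Both were run on simulated reads drawn from control means with the same spread for every gene. Only genes averaging at least 20 reads were changed there. That run therefore does not cover changes in segments with fewer reads, or the wider spread between the knockdown libraries than between the controls. Sums and identities used Python 3.11.15 and Biopython 1.88. Alternatives were other pseudocounts, filters and scalings, a replicate block and each library left out. A correction for exon length and crossed pairs were chosen after seeing the data. Identity is to the closest annotated segment.

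The segments named in each class are up to 6 with most reads among those averaging at least 20 reads, up to 3 with the highest FPKM among the rest, and every segment called. TRBJ1-2, TRBV10-3, TRAJ31, TRAJ38 and the segments given as relatives fall outside this rule and were chosen after their values were seen. Members and lists were chosen with earlier results of these data known. No label says that the libraries came from separate cultures, so the spread behind each p-value may be technical.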

Additional observations from a re-analysis of the deposited data

How the results depend on the processing

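With 2 libraries per group the number of calls moved with most settings. Limma-trend called 27 genes, 1 of them a segment. It called 0 genes with no filter on low values (3938 genes and 18 segments at an unadjusted p under 0.05; limma-voom, run with the filter, called 1019 genes), and 0 to 406 with 1 library left out, of which 0 to 11 were segments. The 0 was reached without knockdown library 1 (2205 genes and 23 segments at an unadjusted p under 0.05) and without knockdown library 2 (4841 and 15), where limma-voom called 1 and 6 segments. Other settings gave 90 genes with a mean of at least 20 reads, 181 genes and 4 segments with at least 5 FPKM, 45 and 3 under quantile normalization, 77 and 3 when recovered reads set the library total, and 111 and 2 after removal of the length trend. A pseudocount of 5 gave 2 segments. Limma-voom called 4 segments, 2 when recovered reads set the library total, and 1 to 6 with 1 library left out. TRBV12-3 was among them in each of these fits. The titles number the libraries 1 and 2 in both groups, but nothing else pairs them, and deviations of equal numbers correlated at -0.207 over genes. With the number as a replicate block limma-trend called 781 genes and 15 segments, and with crossed pairs 1910 and 17, and limma-voom 12 segments with crossed pairs. Most log2 fold changes that changed sign were near 0 in the main fit, but TRBJ2-2P was at 0.72 and TRAJ3 at 0.25. None of the segments that changed sign was called with all 4 libraries. Among the segments named in the text they are TRAJ3 (-0.017), TRBJ1-2 (-0.25), TRBJ2-1 (-0.24) and TRBJ2-3 (-0.23) after removal of the length trend, TRBJ1-3 (0.21), TRBJ1-6 (0.031), TRBV7-2 (0.14) and TRBV27 (-0.033) under quantile normalization, and TRBV7-2 (0.056) on the total of recovered reads. With 1 library left out the log2 fold change ran from -0.44 to 0.94 for TRAJ3, from -0.070 to 0.17 for TRBJ1-2, from -0.072 to 0.17 for TRBJ2-1, from -0.014 to 1.45 for TRBJ2-2P, from -0.080 to 0.21 for TRBJ2-3, from -0.40 to 0.25 for TRBV7-2, from -0.45 to 0.58 for TRBV27 and from -0.58 to 0.20 for TRBV28. The causes were not tested. Depth limits the 40 segments with a mean under 20 reads, where a few reads decide the value.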
